A study of Mus musculus with 18 samples.

Results

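The nuclear receptor family was examined in mouse fat by its messenger RNA. Its 41 genes were taken by symbol: all nuclear receptors of the mouse that have a row under that symbol in every file, with the Nr4a and Nr1d groups left out. They are 41 of 45151 symbols that occur in both kinds of deposited file. RNA-seq had been done on 18 samples from wild-type male C57BL/6J mice aged 16 weeks that were kept on regular chow. There were 6 samples each of adipocytes from iWAT, adipocytes from eWAT and whole BAT. The inguinal (iWAT) and epididymal (eWAT) samples are the floating adipocyte layer of fat digested with collagenase, whereas the brown fat (BAT) samples are snap-frozen whole tissue, although their labels name adipocytes. Depot and preparation therefore cannot be told apart in any comparison with BAT. Samples are named here by their depot and the number in their label, such as eWAT 15.

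Nuclear receptors are transcription factors that bind DNA with a zinc finger domain, and most of them change the coregulators they hold when a small lipid-soluble ligand binds. Steroid receptors pair with themselves, many receptors for lipids and for thyroid hormone, retinoic acid or vitamin D pair with a retinoid X receptor (RXR), and some orphan receptors bind DNA alone. In fat the family is best known through PPAR gamma, the master regulator of adipocyte formation and the target of the thiazolidinedione drugs.

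A short helix of the first zinc finger, the P-box, carries 6 residues that read the half-site in DNA, and it sorts the members in a way that does not rest on expression. The coding bases of this stretch are shown for members from each class that holds a tested gene, with the 18 bases of the P-box in capitals, as read 5′ to 3′ from GENCODE vM1 coding transcripts of the build NCBIM37, which is mm9.
Rxra: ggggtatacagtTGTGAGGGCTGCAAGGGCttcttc
Nr1h3: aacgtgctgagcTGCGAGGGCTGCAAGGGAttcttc
Esrra: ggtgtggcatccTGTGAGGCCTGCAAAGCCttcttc
Esrrg: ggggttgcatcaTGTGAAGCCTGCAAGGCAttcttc
Nr2f1: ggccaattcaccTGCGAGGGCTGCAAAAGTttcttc
Nr2f2: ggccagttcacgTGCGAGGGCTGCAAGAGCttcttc
Esr1: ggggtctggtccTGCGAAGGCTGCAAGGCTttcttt
Nr3c2: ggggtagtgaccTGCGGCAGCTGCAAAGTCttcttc
Nr5a2: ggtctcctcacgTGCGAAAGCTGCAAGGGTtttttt
A P-box was found in 39 of the 41 members, and it fell into 9 classes. The exceptions were Nr0b1 and Nr0b2, which are known to lack the DNA-binding domain. The largest class holds 22 members, including all thyroid hormone, retinoic acid, PPAR, LXR and RXR receptors, which share the 6 residues but use 17 different codings for them. The 3 ERR genes form one class, the COUP-TF genes Nr2f1 and Nr2f2 with Nr2f6 form another, and Nr3c2 stands for the class of the glucocorticoid, mineralocorticoid and progesterone receptors. The Rxra segment lies in a coding exon at chr2:27597295-27597330 on the plus strand, and those of Nr1h3, Esrra and Nr2f2 lie on the minus strand at chr2:91032079-91032114, chr19:6994569-6994604 and chr7:77504907-77504942. For 13 members, Pparg and Nr5a2 among them, the 36 bases had no uninterrupted match in the gene's mm9 sequence. For the other members whose segment was searched they matched once.

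The reads behind the deposited values numbered 22929576 to 34512470 per sample. Adipocyte markers were at their lowest in BAT, with 6 genes summing to between 5809 and 7188 RPKM there, between 11044 and 16821 in iWAT and between 9313 and 17091 in eWAT. RPKM are reads scaled to the row's length and to the sample's read total. The 6 brown adipocyte markers summed to at least 2276 RPKM in BAT samples and to at most 140.1 in iWAT and 27.9 in eWAT. Several libraries stood apart in markers of other cells. The 10 endothelial markers summed to 365 RPKM in iWAT 14 against a depot median of 106, and the 5 epididymis markers to 76.3 in eWAT 14 and 67.4 in eWAT 15 against a median of 1.9. In eWAT 15 the 10 macrophage markers summed to 2475 RPKM against a depot median of 289 (50.6 in iWAT), and in BAT 12 the 8 skeletal muscle markers summed to 1543 against a median of 29.6. The 9 stromal progenitor markers ran from 586 to 849 RPKM in iWAT, from 272 to 383 in eWAT and from 72.5 to 103 in BAT as a sum. In such bulk samples, fewer cells of a type and less RNA per cell cannot be told apart. The labels do not say whether the samples come from separate animals, so p-values measure only the spread between these samples.

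In all 3 depots a small set of receptors carried most of the family's signal. Pparg was the most abundant member everywhere, at 104 ± 10.3 RPKM (mean ± SD, n = 6) in iWAT and 99.1 ± 19.9 in eWAT, against 73.7 ± 7.95 in BAT. It made up 37.4% ± 1.51 of the summed RPKM of the 41 members in iWAT and 31.7% ± 3.37 in eWAT, against 28.97% ± 2.46 in BAT. The next members in iWAT were Nr3c1, Nr1h3 and Rxra, and in eWAT the same genes followed in the order Rxra, Nr1h3 and Nr3c1, with overlapping sample ranges among them in both depots. BAT differed in its order. There Ppara was second at 45.7 ± 9.03 RPKM, followed by Nr1h3 and Esrra at 16.4 ± 1.33 and 16.4 ± 1.18 RPKM, whose sample ranges overlapped.

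A mean RPKM of at least 1 was reached by 22 members in iWAT and 23 in eWAT, against 23 in BAT, and 21 members reached it in all 3 depots. Rara, Rarb, Nr2f1 and Esrrg reached it in some depots only. Vdr, Nr5a2 and Nr6a1 stayed between 0.1 and 1 RPKM in their highest depot. The remaining 13 members were under 0.1 RPKM in every depot: Rorb, Nr1h4 (FXR), Nr1i2 (PXR), Hnf4a, Hnf4g, Nr2e1, Nr2e3, Esr2, Esrrb, Pgr, Nr5a1, Nr0b1 and Nr0b2. Of these, Nr2e3 had 1 read in all 18 samples together, Hnf4g had 2, Nr0b2 had 2 and Nr0b1 had 4. Rorb and Esrrb were the best covered of them, with 131 and 107 reads summed over the 6 BAT samples. Nr5a1 had 35 reads over the eWAT samples, 4 in BAT and 0 in iWAT. A count of 0 in a sample still allows up to 3 reads, which covers counting error only.

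**Figure D1:**
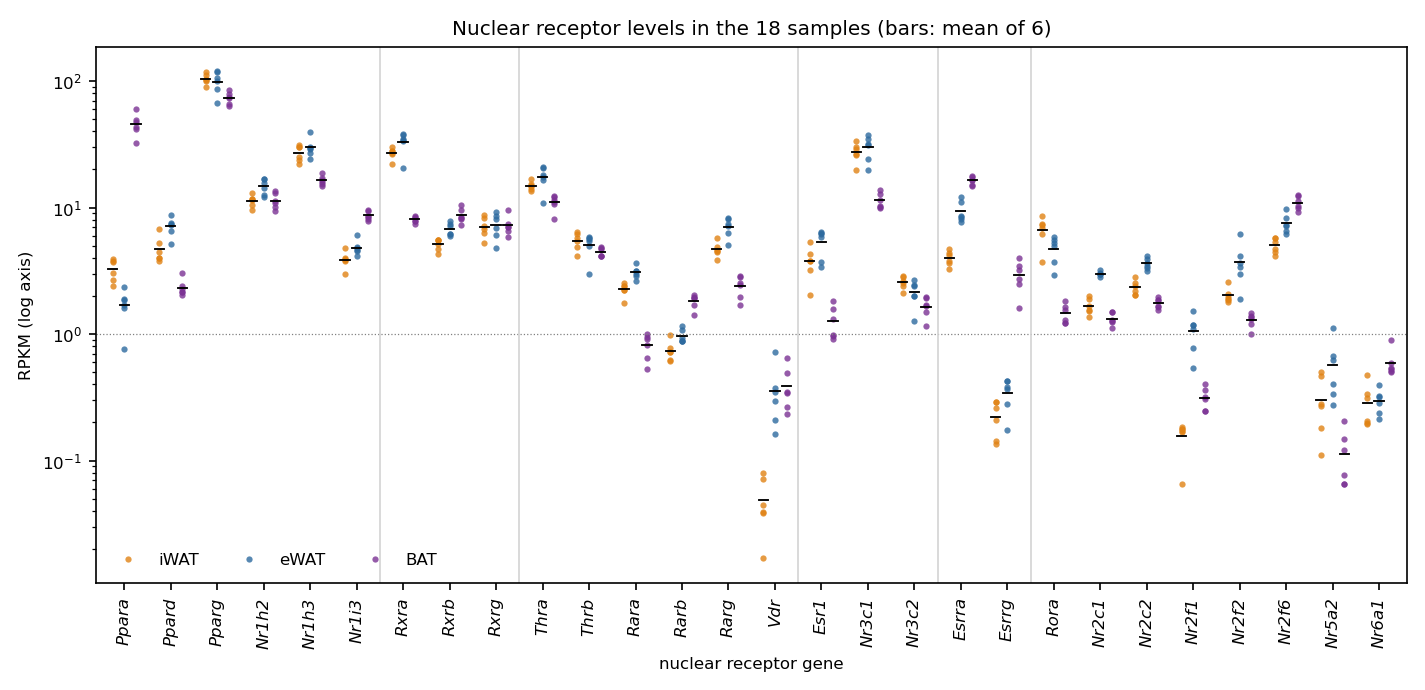
RPKM on a log axis (vertical) of the 28 nuclear receptor genes with a mean of at least 0.1 in some depot (horizontal), with 1 point per sample, 6 samples per depot, and a bar at each mean. Grey lines separate, from left to right, lipid receptors, RXRs, hormone receptors, steroid receptors, ERRs and orphan receptors, and the dotted line marks 1 RPKM. All BAT points of Ppara lie at 32.5 or above and all iWAT and eWAT points at 3.94 or below.

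iWAT and BAT were compared on read counts with edgeR over the 19046 merged gene rows that had at least 10 reads in at least 6 samples, and a gene is called changed at an adjusted p under 0.05. Of the 41 members 29 were tested, and 24 of them were called (82.8%), against 67.8% of all rows. Of the called members 12 were higher in iWAT (34.2% of all rows were) and 12 were lower (33.6% of all rows were). RPKM values of the depots did not overlap for 24 of the 29 tested members, Vdr, Rorb and Nr2f1 among them, beside 47.9% of all rows. Vdr, Rorb and Nr2f1 reached the read filter in this comparison only through BAT and Nr5a2 only through iWAT. In each case the other depot alone would not have passed it. Vdr and Rorb had 2 to 9 and 1 to 7 reads per iWAT sample, so that they had to be lower there. For Nr2f1 (9 to 32 reads in iWAT) and Nr5a2 (8 to 28 in BAT) the filter could favor a difference but did not force one. Without these 4 the count was 20 of 25 (80%), with 11 higher and 9 lower. Without TMM scaling the median log2 fold change over all rows moved from 0.01 to 0.28, and the share of calls that were higher in iWAT moved from 50.4% to 66%.

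eWAT files hold 1 row per transcript, whereas the other files hold 1 merged row per gene, so eWAT was compared through its most-read transcript. Every comparison with eWAT was fitted on counts and again with row length as an offset, and a member counts as called only when both fits pass with the same sign. Against BAT, 18 of 29 tested members were called (62.1%), beside 57.5% of all 18360 rows. Of these 7 were higher in eWAT (29.8% of all rows) and 11 were lower (27.6% of all rows), and 20 did not overlap (61.8% of all rows). Rorb reached the filter only through BAT here as well, and without it 17 of 28 were called (60.7%), so that the share was near that of all rows. Between iWAT and eWAT only 6 members of 29 were called (20.7%), beside 16.8% of all rows. Ppara, Rora, Rxrg and Nr3c2 were higher in iWAT (7.57% of all rows were), Vdr and Nr2f1 were lower (9.27% of all rows were), and 9 members did not overlap (32.4% of all rows). The comparisons share samples, so their values are given side by side and not as independent evidence. Without TMM scaling the share of calls higher in eWAT than in BAT moved from 51.9% to 66.3% over all rows, as the median moved from 0.04 to 0.36.

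**Figure D2:**
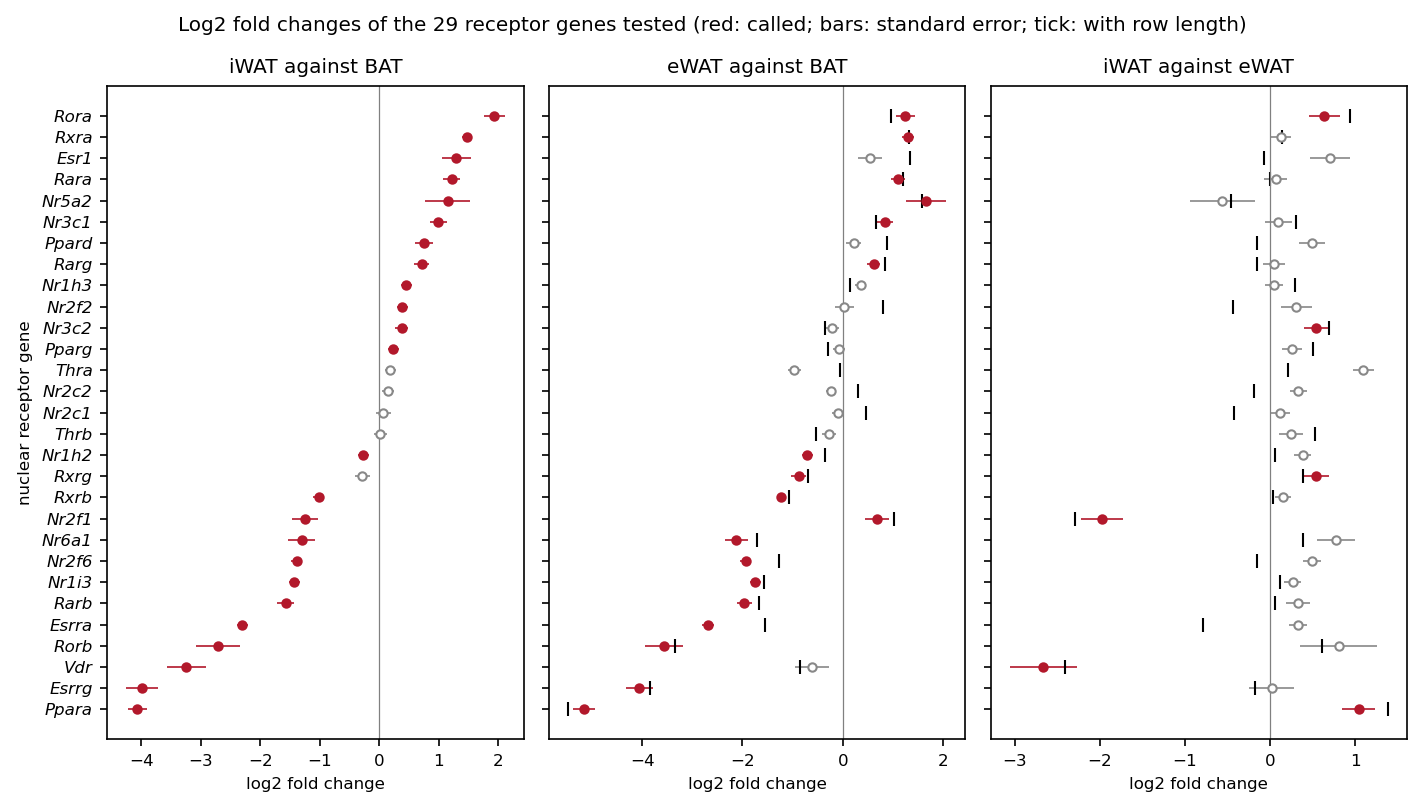
Log2 fold changes (horizontal) of the 29 tested receptor genes (vertical, ordered by the first panel) in the 3 comparisons named above the panels, with standard errors. Red points were called, open points were not, and black ticks give the value with row length in the fit. In iWAT against BAT the values run from -4.07 for Ppara to 1.93 for Rora.

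Among the receptors for lipids, Ppara was the member with the largest difference. PPAR alpha switches on fatty acid oxidation. Ppara ranged from 2.401 to 3.94 (median 3.36) RPKM in iWAT, from 0.762 to 2.34 (median 1.79) in eWAT and from 32.5 to 59.8 (median 45.3) in BAT. All 6 BAT samples were above all white fat samples, and all iWAT samples were above all eWAT samples. In iWAT it was 16.8-fold lower than in BAT, with a log2 fold change (± SE, as for all that follow) of -4.07 ± 0.16 (edgeR adjusted p = 7.27e-11). For eWAT against BAT the value was -5.16 ± 0.23 on counts and -5.48 ± 0.23 with row length (edgeR adjusted p = 6.78e-13 and 2.70e-13). The step between the white depots, iWAT against eWAT, was 1.04 ± 0.19 on counts and 1.39 ± 0.19 with row length (edgeR adjusted p = 7.58e-04 and 1.01e-05).

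Pparg itself differed little. Pparg ranged from 89.1 to 119 (median 103) RPKM in iWAT, from 66.8 to 119 (median 103) in eWAT and from 63.7 to 85 (median 74.7) in BAT. The iWAT samples lay above the BAT samples without overlap, but eWAT 15 fell into the BAT range. The log2 fold change of iWAT against BAT was 0.23 ± 0.09 (edgeR adjusted p = 0.04), and the call was lost without 1 of the samples iWAT 12 or 15 or BAT 6, 7, 11, 12 or 13, with adjusted p between 0.0534 and 0.141 (edgeR). It was not called in either comparison with eWAT.

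Ppard, the third PPAR, is expressed in many tissues. Ppard ranged from 3.78 to 6.796 (median 4.205) RPKM in iWAT, from 5.16 to 8.72 (median 7.31) in eWAT and from 2.02 to 3.05 (median 2.21) in BAT. Neither white depot overlapped BAT. iWAT was 1.69-fold higher than BAT, at 0.75 ± 0.15 (edgeR adjusted p = 5.31e-04), whereas for eWAT only the fit with row length passed, at 0.21 ± 0.15 on counts and 0.88 ± 0.15 with row length (edgeR adjusted p = 0.213 and 4.11e-05).

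The PPAR subfamily had a different makeup in BAT while its sum was similar. The 3 genes together reached 112 ± 10.3 RPKM in iWAT and 108 ± 21.01 in eWAT, against 122 ± 12.99 in BAT (SD, n = 6). Ppara accounted for 28.6% to 42.9% of that sum in BAT samples, 2.14% to 3.49% in iWAT and 1.05% to 1.81% in eWAT. These shares follow from the values above and were not tested separately.

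The liver X receptors bind oxysterols and induce cholesterol efflux and lipogenic genes. Nr1h3 ranged from 22.3 to 31.5 (median 27.5) RPKM in iWAT, from 24.4 to 39.3 (median 29.2) in eWAT and from 14.8 to 18.6 (median 16.3) in BAT. LXR alpha was thus higher in every white sample than in any BAT sample, with 0.46 ± 0.09 (edgeR adjusted p = 7.12e-04) for iWAT. In eWAT the value passed on counts alone, at 0.36 ± 0.11 on counts and 0.14 ± 0.11 with row length (edgeR adjusted p = 0.00606 and 0.277). Nr1h2 ranged from 9.49 to 12.9 (median 11.6) RPKM in iWAT, from 12.1 to 16.8 (median 14.96) in eWAT and from 9.39 to 13.6 (median 11.03) in BAT. These ranges of Nr1h2 (LXR beta) overlapped between iWAT and BAT, and it was lower in iWAT at -0.27 ± 0.09 (edgeR adjusted p = 0.0175). This call depends on the scaling: without TMM it was -0.01 with an edgeR adjusted p of 0.951. In eWAT against BAT it was -0.705 ± 0.10 on counts and -0.35 ± 0.10 with row length (edgeR adjusted p = 4.92e-06 and 0.00377), although the eWAT RPKM were the highest of the 3 depots. The direction turned with limma on log2(RPKM + 0.1), to 0.37 (adjusted p = 0.00412), and with eWAT reads summed over transcripts, to 0.29 (edgeR adjusted p = 0.0147).

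Nr1i3 encodes CAR, a xenobiotic receptor of the liver. Nr1i3 ranged from 3.01 to 4.77 (median 3.86) RPKM in iWAT, from 4.11 to 6.07 (median 4.69) in eWAT and from 7.89 to 9.62 (median 8.53) in BAT. BAT lay above both white depots, at -1.43 ± 0.097 (edgeR adjusted p = 1.41e-08) for iWAT against BAT and -1.74 ± 0.104 on counts and -1.57 ± 0.11 with row length (edgeR adjusted p = 4.26e-11 and 2.30e-10) for eWAT against BAT. However, 2268 of its 4414 exon bases overlap Tomm40l, a relative of a mitochondrial import channel on the opposite strand, and the sources used here do not state whether reads were counted by strand. Tomm40l had mean RPKM of 3.80 in iWAT and 5.43 in eWAT, against 8.38 in BAT, close to the Nr1i3 means of 3.88, 4.83 and 8.69. In eWAT the RefSeq transcript of Nr1i3 had only 6 to 15 reads per sample, against 387 to 546 for the most-read row. The values under the symbol Nr1i3 are therefore uncertain as a level of the receptor.

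The RXRs are the shared partners of the lipid and hormone receptors, and they changed in opposite directions. Rxra ranged from 21.96 to 30.3 (median 27.4) RPKM in iWAT, from 20.7 to 37.8 (median 34.6) in eWAT and from 7.35 to 8.53 (median 8.08) in BAT. No BAT sample came near the white ones, and eWAT 15 was the lowest of the white samples. Rxra was 2.78-fold higher in iWAT, at 1.48 ± 0.08 (edgeR adjusted p = 2.54e-09), and for eWAT against BAT it was 1.298 ± 0.12 on counts and 1.31 ± 0.12 with row length (edgeR adjusted p = 1.31e-08 and 1.51e-08). Rxrb ranged from 4.25 to 5.58 (median 5.36) RPKM in iWAT, from 5.91 to 7.78 (median 6.66) in eWAT and from 7.28 to 10.5 (median 8.32) in BAT. Rxrb was 2.03-fold lower in iWAT than in BAT, at -1.02 ± 0.09 (edgeR adjusted p = 1.86e-07) with no overlap between the depots.

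Rxrg, which is known for its high level in muscle, had overlapping RPKM in all depots. Rxrg ranged from 5.23 to 8.72 (median 6.95) RPKM in iWAT, from 4.82 to 9.27 (median 7.498) in eWAT and from 5.83 to 9.57 (median 6.98) in BAT. The value of iWAT against BAT was -0.29 ± 0.13 (edgeR adjusted p = 0.0626) and was not called. eWAT against BAT gave -0.88 ± 0.15 on counts and -0.703 ± 0.16 with row length (edgeR adjusted p = 4.10e-05 and 5.17e-04), and iWAT against eWAT gave 0.54 ± 0.15 on counts and 0.39 ± 0.16 with row length (edgeR adjusted p = 0.0118 and 0.0419). The eWAT against BAT call was lost with limma on log2(RPKM + 0.1), at -0.00083 (adjusted p = 0.996). The call between the white depots was lost with limma too, at -0.034 (adjusted p = 0.878), with the sum over eWAT transcripts, at 0.18 (edgeR adjusted p = 0.307), and when any of iWAT 11, 13, 14 or 15 or eWAT 7, 8 or 15 was left out. Within the summed RXR RPKM, Rxra made up 68.8% ± 4.51 in iWAT and 69.9% ± 4.14 in eWAT, against 33.8% ± 3.07 in BAT (SD, n = 6). There the 3 subtypes were near equal, with Rxrb at 36.1% ± 2.18 and Rxrg at 30.02% ± 3.02.

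**Figure D3:**
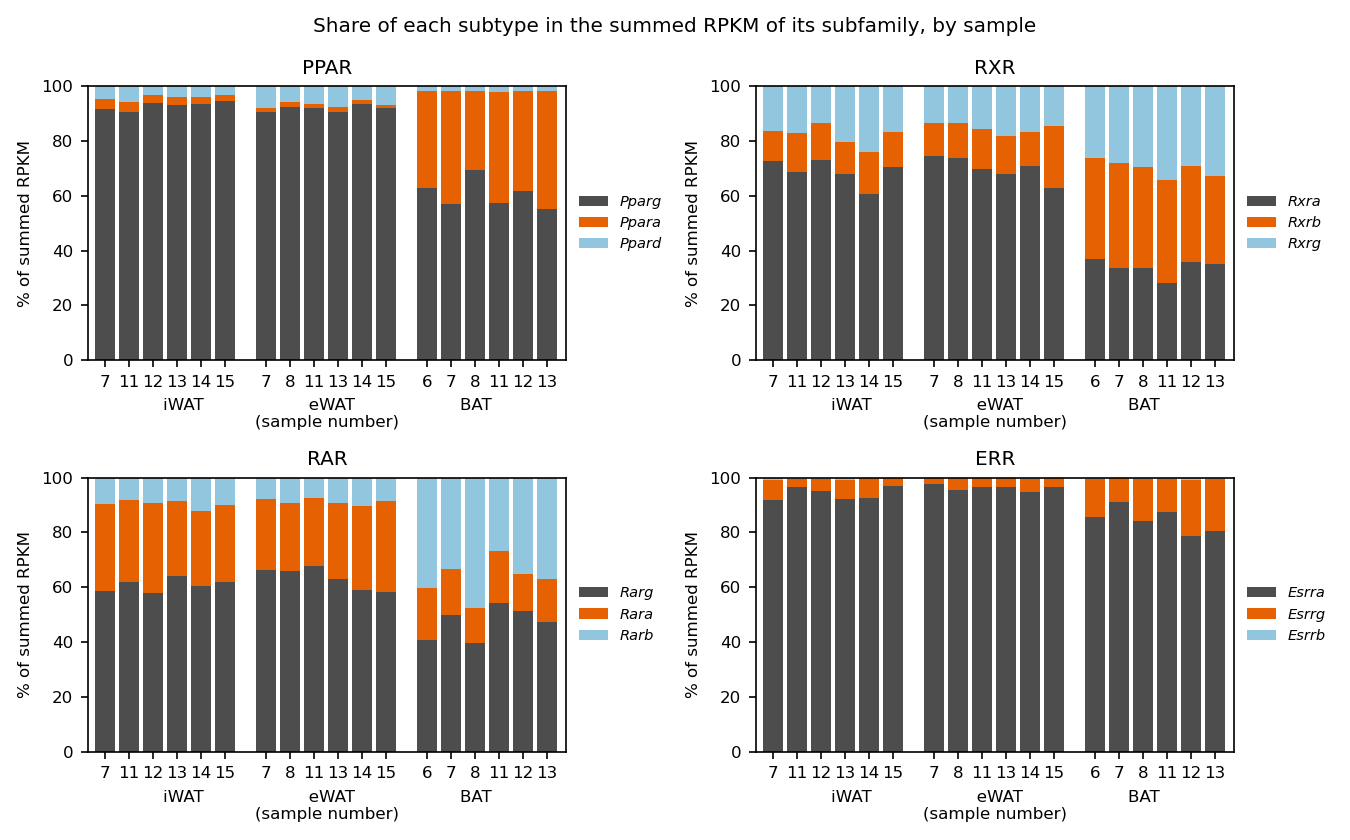
Percentage of the summed RPKM of a subfamily (vertical) that each subtype takes, in stacked bars, 1 bar per sample with the sample number below (horizontal), for the PPAR, RXR, RAR and ERR genes. In BAT the shares of Ppara (28.6% to 42.9%), Rxrb (32.2% to 38.2%), Rarb (26.7% to 47.7%) and Esrrg (8.81% to 20.6%) are above those of every white fat sample.

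The retinoic acid receptors also exchanged subtypes between depots. Rara ranged from 1.75 to 2.54 (median 2.32) RPKM in iWAT, from 2.64 to 3.63 (median 3.05) in eWAT and from 0.532 to 1.01 (median 0.866) in BAT. Rarg ranged from 3.86 to 5.71 (median 4.58) RPKM in iWAT, from 5.03 to 8.26 (median 7.33) in eWAT and from 1.69 to 2.89 (median 2.49) in BAT. Rara and the skin-enriched Rarg were higher in white fat and did not overlap BAT. For iWAT against BAT the log2 fold changes were 1.22 ± 0.14 (edgeR adjusted p = 3.04e-06) for Rara and 0.71 ± 0.12 (edgeR adjusted p = 1.24e-04) for Rarg. Both calls also held for eWAT, with 1.103 ± 0.13 on counts and 1.19 ± 0.13 with row length (edgeR adjusted p = 7.40e-07 and 1.66e-07) for Rara. Rarb, itself a classical target of retinoic acid, went the other way. Rarb ranged from 0.609 to 0.982 (median 0.72) RPKM in iWAT, from 0.876 to 1.162 (median 0.905) in eWAT and from 1.42 to 2.03 (median 1.92) in BAT. Every BAT sample was above every white sample, with -1.58 ± 0.15 (edgeR adjusted p = 3.73e-07) for iWAT and -1.96 ± 0.14 on counts and -1.66 ± 0.14 with row length (edgeR adjusted p = 6.65e-10 and 4.37e-09) for eWAT.

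Neither thyroid hormone receptor was called. Thra ranged from 13.6 to 16.7 (median 14.8) RPKM in iWAT, from 10.9 to 20.96 (median 17.8) in eWAT and from 8.05 to 12.3 (median 11.3) in BAT. Thrb ranged from 4.14 to 6.35 (median 5.57) RPKM in iWAT, from 2.97 to 5.83 (median 5.53) in eWAT and from 4.103 to 4.87 (median 4.42) in BAT. For Thra the iWAT samples lay above the BAT samples, but the value of 0.18 ± 0.09 (edgeR adjusted p = 0.0913) was not called. For Thrb the ranges overlapped and the value was 0.01 ± 0.11 (edgeR adjusted p = 0.926). Both depend on the scaling, since without TMM they were called, Thra at 0.44 (edgeR adjusted p = 0.00118) and Thrb at 0.29 (edgeR adjusted p = 0.0208), and Thra was also called without iWAT 12, at 0.23 (edgeR adjusted p = 0.0376). In eWAT neither gene was called, since for Thra the fits on counts and with row length gave -0.96 and -0.05 on the log2 scale.

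Vdr, the vitamin D receptor, was scarce. Vdr ranged from 0.0168 to 0.0799 (median 0.0419) RPKM in iWAT, from 0.163 to 0.722 (median 0.322) in eWAT and from 0.233 to 0.647 (median 0.345) in BAT. The iWAT samples had 2 to 9 reads each and lay below all others. As Vdr reached the filter against BAT only through BAT, no test is given for that comparison. For iWAT against eWAT it was -2.66 ± 0.397 on counts and -2.41 ± 0.39 with row length (edgeR adjusted p = 1.01e-04 and 5.26e-05). The highest eWAT sample was eWAT 15, which also had the highest macrophage marker sum, and without it iWAT against eWAT was still -2.30 (edgeR adjusted p = 9.96e-05).

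The steroid receptors that passed the filter were all higher in iWAT adipocytes than in BAT. Nr3c1, the glucocorticoid receptor, binds corticosterone, and glucocorticoids are part of the cocktails that make cultured preadipocytes differentiate. Nr3c1 ranged from 19.7 to 33.5 (median 27.6) RPKM in iWAT, from 19.6 to 37.7 (median 31.7) in eWAT and from 9.89 to 13.8 (median 10.9) in BAT. All white samples were above all BAT samples. iWAT was 1.99-fold higher, at 0.99 ± 0.14 (edgeR adjusted p = 2.66e-05), and eWAT gave 0.85 ± 0.16 on counts and 0.66 ± 0.16 with row length (edgeR adjusted p = 1.26e-04 and 0.00128). Esr1 ranged from 2.02 to 5.31 (median 3.79) RPKM in iWAT, from 3.42 to 6.43 (median 6.03) in eWAT and from 0.914 to 1.84 (median 1.14) in BAT. Estrogen receptor alpha was higher in each white sample than in any BAT sample, and iWAT against BAT was 1.29 ± 0.24 (edgeR adjusted p = 2.57e-04). For eWAT the value on counts just missed the threshold, at 0.54 ± 0.24 on counts and 1.33 ± 0.24 with row length (edgeR adjusted p = 0.0506 and 6.82e-05). Nr3c2 ranged from 2.1 to 2.89 (median 2.59) RPKM in iWAT, from 1.26 to 2.696 (median 2.21) in eWAT and from 1.156 to 1.96 (median 1.68) in BAT. The mineralocorticoid receptor Nr3c2 did not overlap between iWAT and BAT, at 0.37 ± 0.11 (edgeR adjusted p = 0.00969), and between the white depots it was 0.54 ± 0.15 on counts and 0.698 ± 0.15 with row length (edgeR adjusted p = 0.0111 and 6.69e-04). This last call was lost with limma on log2(RPKM + 0.1), at 0.28 (adjusted p = 0.154), and with the sum over eWAT transcripts, at -0.015 (edgeR adjusted p = 0.934). Esr2 and Pgr did not pass the filter, with at most 15 and 2 reads over the 6 samples of a depot.

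The estrogen-related receptors bind no estrogen and drive mitochondrial genes together with PGC-1 coactivators. Both tested genes had their highest values in BAT. Esrra ranged from 3.29 to 4.68 (median 4.01) RPKM in iWAT, from 7.73 to 12.1 (median 8.48) in eWAT and from 14.9 to 17.8 (median 16.5) in BAT. The depots did not overlap, in the order iWAT, eWAT and BAT. Esrra was 4.95-fold lower in iWAT than in BAT, at -2.31 ± 0.09 (edgeR adjusted p = 7.67e-11), and the eWAT value was -2.69 ± 0.11 on counts and -1.55 ± 0.11 with row length (edgeR adjusted p = 3.43e-13 and 4.39e-10). Between iWAT and eWAT the fits disagreed in sign, at 0.33 on counts and -0.79 with row length, so the order of the white depots is not settled for this gene. Esrrg ranged from 0.135 to 0.291 (median 0.233) RPKM in iWAT, from 0.174 to 0.429 (median 0.374) in eWAT and from 1.61 to 3.97 (median 2.96) in BAT. Esrrg was 15.9-fold lower in iWAT than in BAT, at -3.99 ± 0.26 (edgeR adjusted p = 1.16e-08), with no overlap, and all eWAT samples also lay below all BAT samples. BAT 12, the sample with skeletal muscle markers, had the highest Esrrg value of 3.97 RPKM, and without it the log2 fold change of iWAT against BAT was -3.91 (edgeR adjusted p = 3.09e-08). Esrrb had 0 to 6 reads in iWAT, 2 to 4 in eWAT and 8 to 28 in BAT per sample and was not tested.

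Of the orphan receptors, Rora was the one most raised in iWAT. ROR alpha binds DNA as a monomer and is a component of the circadian clock. Rora ranged from 3.68 to 8.601 (median 7.11) RPKM in iWAT, from 2.93 to 5.88 (median 5.098) in eWAT and from 1.22 to 1.82 (median 1.41) in BAT. White and brown samples did not overlap, and iWAT was 3.81-fold above BAT, at 1.93 ± 0.18 (edgeR adjusted p = 3.17e-07). eWAT against BAT was 1.25 ± 0.19 on counts and 0.96 ± 0.19 with row length (edgeR adjusted p = 9.50e-06 and 1.32e-04) and iWAT against eWAT was 0.64 ± 0.18 on counts and 0.94 ± 0.18 with row length (edgeR adjusted p = 0.0157 and 3.42e-04). Its relative Rorb had only 1 to 7 reads per iWAT sample and 12 to 37 per BAT sample.

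The COUP-TF group did not move as a block. Nr2f1 ranged from 0.0648 to 0.186 (median 0.174) RPKM in iWAT, from 0.542 to 1.53 (median 1.13) in eWAT and from 0.244 to 0.403 (median 0.313) in BAT. All eWAT samples were above all samples of both other depots. eWAT against BAT was 0.68 ± 0.24 on counts and 1.02 ± 0.24 with row length (edgeR adjusted p = 0.016 and 7.75e-04), and iWAT against eWAT was -1.97 ± 0.25 on counts and -2.29 ± 0.25 with row length (edgeR adjusted p = 1.84e-05 and 5.56e-07). All iWAT samples were below all BAT samples, and no test is given since Nr2f1 reached that filter only through BAT. Nr2f2 ranged from 1.78 to 2.56 (median 1.93) RPKM in iWAT, from 1.89 to 6.23 (median 3.502) in eWAT and from 1.004 to 1.47 (median 1.34) in BAT. Nr2f2 (COUP-TFII), a regulator of venous and mesenchymal identity, was higher in all iWAT than in all BAT samples, at 0.39 ± 0.09 (edgeR adjusted p = 0.00194), and its eWAT values ranged the widest of the 3 depots. The highest, eWAT 8, was also the eWAT sample with the highest endothelial sum (401 RPKM) and pericyte and smooth muscle sum (191 RPKM), whose part was not tested. Nr2f6 ranged from 4.15 to 5.77 (median 4.996) RPKM in iWAT, from 6.21 to 9.69 (median 7.18) in eWAT and from 9.22 to 12.7 (median 10.8) in BAT. Nr2f6 was lower in iWAT, at -1.39 ± 0.09 (edgeR adjusted p = 1.25e-08), but 1622 of its 2983 exon bases overlap Ocel1 on the other strand, at mean RPKM of 2.35 in iWAT and 1.86 in eWAT, against 4.77 in BAT.

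The testis receptors Nr2c1 and Nr2c2 were not called. Nr2c1 ranged from 1.36 to 1.99 (median 1.597) RPKM in iWAT, from 2.83 to 3.201 (median 2.99) in eWAT and from 1.11 to 1.49 (median 1.27) in BAT. Nr2c2 ranged from 2.04 to 2.83 (median 2.299) RPKM in iWAT, from 3.16 to 4.15 (median 3.55) in eWAT and from 1.54 to 1.97 (median 1.75) in BAT. Neither was called in any comparison, at 0.06 ± 0.13 (edgeR adjusted p = 0.663) and 0.15 ± 0.104 (edgeR adjusted p = 0.221) for iWAT against BAT. This depends on the scaling, since without TMM both were called there, Nr2c1 at 0.34 (edgeR adjusted p = 0.0151) and Nr2c2 at 0.42 (edgeR adjusted p = 0.00141). The RPKM of both were above BAT in all eWAT samples, where transcript rows are shorter than merged rows. Of Nr2c2, 3533 of 9152 exon bases overlap Mrps25 on the other strand. Nr5a2 (LRH-1) and Nr6a1 (GCNF) were low. Nr5a2 ranged from 0.111 to 0.505 (median 0.276) RPKM in iWAT, from 0.275 to 1.12 (median 0.511) in eWAT and from 0.0646 to 0.207 (median 0.0981) in BAT. Its iWAT range overlapped those of both other depots, and no test is given for iWAT against BAT since Nr5a2 reached that filter only through iWAT. All eWAT samples of Nr5a2 were above all BAT samples. For eWAT against BAT the value was 1.66 ± 0.40 on counts and 1.58 ± 0.40 with row length (edgeR adjusted p = 0.0013 and 0.0015). Nr6a1 ranged from 0.195 to 0.473 (median 0.256) RPKM in iWAT, from 0.214 to 0.399 (median 0.301) in eWAT and from 0.505 to 0.889 (median 0.532) in BAT. Nr6a1 was lower in iWAT, at -1.31 ± 0.23 (edgeR adjusted p = 1.68e-04), and in eWAT, at -2.12 ± 0.23 on counts and -1.72 ± 0.22 with row length (edgeR adjusted p = 1.40e-07 and 1.38e-06), than in BAT.

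Grouped by P-box, the class of 22 members had 7 higher in iWAT than in BAT (34.2% of all rows), 8 lower (33.6% of all rows) and 5 not called among 20 tested, and the lower ones include Vdr and Rorb, which had to be lower. Both tested ERR genes were lower, both tested members of the glucocorticoid receptor class were higher, and of the COUP-TF class 1 was higher and 2 were lower, Nr2f1 among them. These are counts of few genes and carry no test.

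Around the receptors, the coregulators showed a few large differences among many small ones. Of 20 coactivators 8 were higher in iWAT than in BAT, 6 were lower and 6 were not called (67.8% of all rows were called), with a median log2 fold change of 0.27 against 0.01 over all rows. Ppargc1b and Ppargc1a, which encode the PGC-1 coactivators of mitochondrial genes, fell most, with -3.39 ± 0.101 and -2.69 ± 0.35 (log2 fold change ± SE). Ppargc1b was at 1.55 ± 0.203 RPKM in iWAT and 13.4 ± 0.785 in BAT (SD, n = 6), and Ppargc1a at 1.45 ± 0.456 and 7.96 ± 5.67. Ncoa7 was lower too, at -0.91 ± 0.14. Pnrc1, Ncoa2 and Kat2b were the most raised, with 2.06 ± 0.13, 0.84 ± 0.12 and 0.66 ± 0.11. Between iWAT and eWAT 4 coactivators were called, all higher in iWAT, among them Prdm16, a regulator of brown and beige fat, at 2.25 ± 0.22 on counts, Ppargc1a at 1.45 ± 0.35 and Ppargc1b at 1.05 ± 0.13.

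Of 18 corepressors 9 were higher in iWAT than in BAT, 3 were lower and 6 were not called. The share called was 66.7%, near the 67.8% of all rows. Nrip1 (RIP140), a corepressor of oxidative genes in adipocytes, had the largest difference. It was at 24.8 ± 7.84 RPKM in iWAT and 29.4 ± 10.7 in eWAT, against 1.24 ± 0.159 in BAT, a log2 fold change of 4.07 ± 0.22 for iWAT against BAT and 3.41 ± 0.27 on counts for eWAT. Hr, the hairless corepressor of thyroid hormone receptors, followed at 1.84 ± 0.28 and Tbl1x at 1.53 ± 0.08. Tbl1xr1, Ctbp1 and Gps2 were called lower in iWAT, at -0.48 ± 0.09, -0.29 ± 0.06 and -0.24 ± 0.09, but the direction of Gps2 rests on the TMM scaling, since its mean RPKM was 5.25 in iWAT and 5.16 in BAT, and Ctbp1 was at 18.2 and 18.6.

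Target genes were read from lists of well-known targets, several of which respond to more than 1 factor and some of which stand in 2 lists (Angptl4, Pck1, Klf9, Hr, Dio2 and Rarb among them). All 17 tested ERR targets were lower in iWAT and in eWAT than in BAT (33.6% and 27.6% of all rows were), with medians of -2.28 and -2.70. Idh3b, a subunit of a citric acid cycle enzyme, was at -2.58 ± 0.08. Of 18 PPAR alpha targets 14 were lower in iWAT than in BAT (33.6% of all rows) and 4 were higher (34.2% of all rows), with a median of -2.36. Fgf21 reached the filter only through iWAT, and without it 14 of 17 were lower and 3 were higher. Cpt1b, the muscle-type carnitine palmitoyltransferase, was at 2.63 ± 0.52 RPKM in iWAT and 164 ± 12.9 in BAT, a log2 fold change of -6.22 ± 0.16, and Plin5 had a value of -3.85 ± 0.14. Vnn1 went the other way, at 3.498 ± 0.23. Several of these genes are also markers of brown adipocytes, so receptor and cell type cannot be told apart in them.

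Of 18 PPAR gamma targets 11 were higher in iWAT than in BAT (34.2% of all rows), 4 were lower and 3 were not called. The higher ones include Adipoq, Plin1, Fabp4, Cidec and Lipe, which are also adipocyte markers, whose sum was lowest in BAT. Retn (resistin) and the lipid droplet gene Plin4 were raised most, by 5.202 ± 0.29 and 2.597 ± 0.14, while Gpd1 and Agpat2 were lower (-2.25 ± 0.14 and -1.59 ± 0.15). Of 15 tested glucocorticoid receptor targets 13 were higher in iWAT than in BAT and 0 were lower (33.6% of all rows were). Mt2, a metallothionein, was at 573 ± 223 RPKM in iWAT and 32.3 ± 6.49 in BAT (3.89 ± 0.24). Lcn2 reached the filter only through iWAT, and without it 12 of 14 were higher. Of 9 tested LXR targets 6 were higher and 2 lower, or 5 and 2 of 8 without Rgs16, which reached the filter only through iWAT. Apoe was higher by 2.62 ± 0.16, whereas Scd1, the stearoyl-CoA desaturase, was lower, at -0.94 ± 0.24.

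Thyroid hormone targets were lower in iWAT for 7 of 11 tested and higher for 2. Ucp1, the uncoupling protein of brown fat, was at 2.82 ± 1.92 RPKM in iWAT and 0.327 ± 0.166 in eWAT, against 1219 ± 190.0 in BAT. Atp2a1, a calcium pump of fast muscle, reached the filter only through BAT, where its level was 281.6 RPKM in BAT 12 and 0.109 to 28.0 in the other BAT samples, in which the muscle markers were also lower. Of 7 tested retinoic acid targets 2 were higher and 3 lower, with Dhrs3 at 0.602 ± 0.14 and Hoxa5 at -2.12 ± 0.16.

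In eWAT against BAT, where 29.8% of all rows were higher and 27.6% lower, the counts of higher and lower genes were 3 and 6 of 20 coactivators, 8 and 3 of 17 corepressors, 8 and 6 of 18 PPAR gamma targets and 2 and 14 of 18 PPAR alpha targets. They were 11 and 0 of 15 glucocorticoid receptor targets, 5 and 1 of 9 LXR targets, 1 and 8 of 11 thyroid hormone targets and 2 and 3 of 7 retinoic acid targets.

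Between the white depots 11 of 18 PPAR alpha targets were higher in iWAT than in eWAT (7.57% of all rows) and 0 were lower (9.27% of all rows), with Pdk4 and Vnn1 ahead (2.05 ± 0.28 and 2.04 ± 0.24 on counts). For the other target lists the counts in the same order were 6 and 0 of 18 PPAR gamma targets, 3 and 0 of 17 ERR targets, 5 and 0 of 15 glucocorticoid receptor targets, 1 and 0 of 9 LXR targets, 4 and 0 of 11 thyroid hormone targets, and 0 and 1 of 7 retinoic acid targets. The medians of these lists were between -0.32 and 0.65 on counts.

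**Figure D4:**
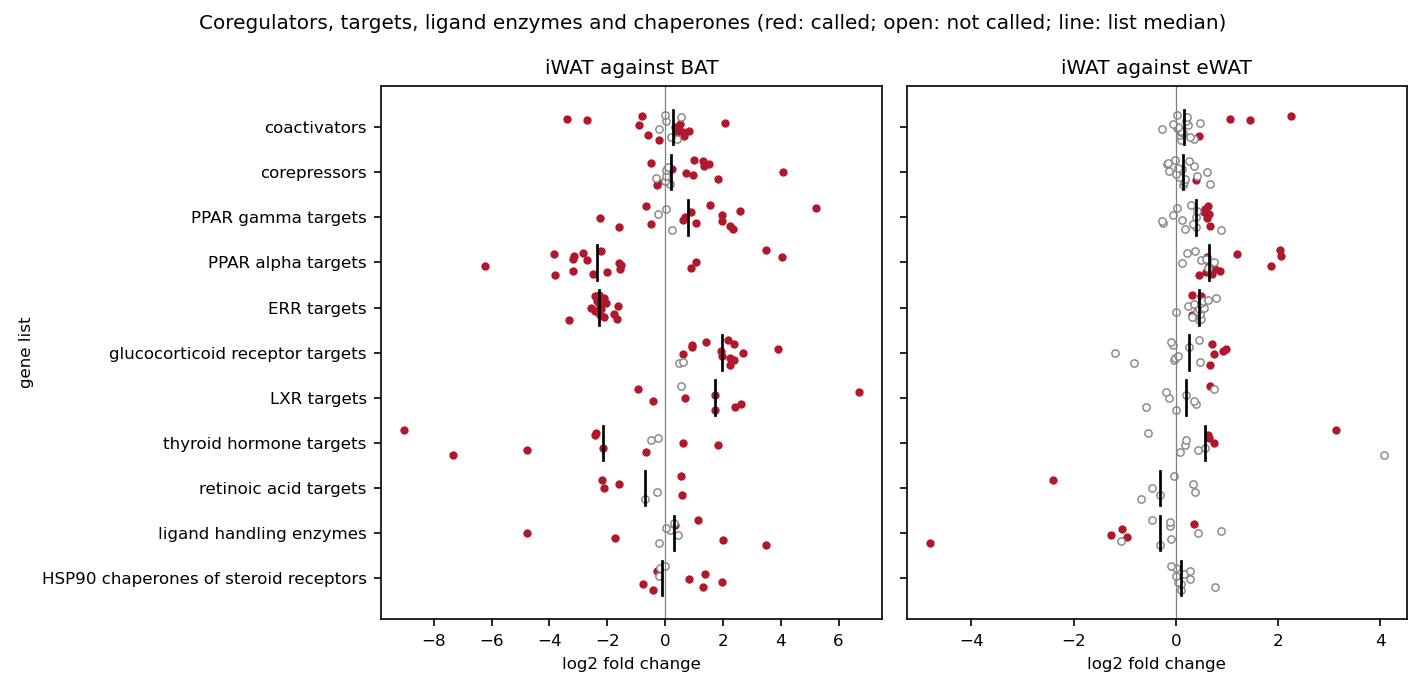
Log2 fold changes (horizontal) of single genes in the lists of coregulators, targets, ligand enzymes and chaperones (vertical), for iWAT against BAT and iWAT against eWAT. Red points were called, open points were not, and black lines mark list medians. All 17 ERR target genes lie below 0 in iWAT against BAT.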

How the data were processed

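RNA-seq files of 18 samples were used, 6 per depot as the labels give it. Every deposited file gives raw read counts by row beside RPKM values. Checked on the files, RPKM is the count over the row's length and over a single read total for the whole sample. The study's methods name the NEBNext Ultra kit, an Illumina HiSeq instrument, Genomatix software and the build mm9, and the submitters' processing notes name cutadapt 1.16 and HISAT2 2.1.0. How reads were counted, and whether by strand, is not given in the sources used here. iWAT and BAT files hold 53445 merged gene rows and eWAT files 189660 transcript rows. For each symbol the merged row (iWAT, BAT) and the most-read transcript (eWAT) were taken. The eWAT comparisons were fitted on all 18 samples.

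Read counts were tested with edgeR 4.0.16 (glmQLFit and glmQLFTest, TMM) in R 4.3.3, with that read total as library size, at least 10 reads in at least 6 samples, and Benjamini-Hochberg adjustment over all rows tested. Standard errors were derived from the F statistics. Levels are compared as RPKM, and differences as log2 fold changes. Precision follows from 22929576 to 34512470 reads per sample. The edgeR fits on counts and with row length were tested on simulated counts. Alternatives were DESeq2 1.42.0, limma 3.58.1 on log2(RPKM + 0.1), no TMM, no filter, a replicate block, other eWAT rows and leaving out each sample. Added after the data were seen were the longest eWAT transcript and leaving out members that share at least 25% of their exon bases with a gene on the other strand, or members that reach the read filter only through the depot where they are higher. Ranges over samples are given for members that averaged 0.1 RPKM or more in any depot, called or not. Coregulators are named by the 3 largest changes each way, targets by at most 2. Members, gene lists and tests were chosen with earlier results of these data known. A few named items that these rules would include are not reported here.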

Additional observations from a re-analysis of the deposited data

Results flagged for a closer look

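In each depot, the highest and lowest sample of every member with a mean of at least 0.1 RPKM was set against the other 5 samples by its gap to the nearest one, over the whole range. Of 83 such sets 6 held a sample past Dixon's 95% critical value, and chance gives about 1 in 20, or 4.15. In eWAT 15 Rxra was at 20.7 RPKM, against 33.5 to 37.8 in the other eWAT samples, and Thrb was at 2.97 against 4.99 to 5.83. This sample held the lowest eWAT value for 14 of the 23 members with a mean of at least 1 RPKM, and among the eWAT samples it had the lowest adipocyte marker sum, 9313 RPKM, and the highest macrophage marker sum, 2475 RPKM. Their part in these values was not tested. In BAT 11 Ppard was at 3.05 RPKM against 2.02 to 2.38, and Nr6a1 was at 0.890 against 0.505 to 0.589. In iWAT 15 Nr2f1 was at 0.0648 RPKM against 0.167 to 0.186, and in iWAT 12 Nr2f2 was at 2.56 against 1.78 to 2.07.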

How the results depend on the processing

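The number of members called stayed within 1.5 times for iWAT against BAT (24, or 20 to 27 under other settings and 21 to 25 without 1 sample) and for eWAT against BAT (18, or 16 to 27, and 17 to 20). For iWAT against eWAT 6 were called, 5 to 6 without 1 sample and 4 to 9 under most settings, but 17 with limma on log2(RPKM + 0.1), 14 by counts alone, 12 by the length offset alone and 16 for the sum over eWAT transcripts. Over all rows, 3092 called there became 9646, 4706, 9635 and 13574, and 4847 with the longest transcript. The white depots differ in the kind of row, so depot and row type cannot be told apart. Calls that both fits share still rest on the most-read eWAT transcript alone. With the sum over eWAT transcripts those of Rxrg and Nr3c2 were lost, while those of Ppara, Rora, Vdr and Nr2f1 were kept.

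Directions that turned in eWAT against BAT (log2) were Nr2c1 at 0.23 without TMM. With limma they were Thra 0.65, Pparg 0.41, Nr1h2 0.37, Nr2c1 1.14 and Nr2c2 1.001, with the length offset alone Nr2c1 0.46 and Nr2c2 0.31, and with the sum Nr1h2 0.29 and Nr3c2 0.37. In iWAT against eWAT limma turned Rara -0.43, Rarb -0.35, Rarg -0.58, Ppard -0.60, Nr1h2 -0.37, Nr1i3 -0.31, Rxrb -0.39, Rxrg -0.034, Nr2c1 -0.83, Nr2c2 -0.61, Nr2f2 -0.77, Nr2f6 -0.57 and Esrra -1.19. The length offset alone turned Nr2c1 -0.42, Nr2f2 -0.43 and Esrra -0.79. The sum turned Rara -1.24, Rarg -0.44, Nr1h2 -0.58, Rxra -0.38, Rxrb -0.30, Nr2f6 -0.41, Nr3c1 -0.93 and Nr3c2 -0.015. The cause was not tested.

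Samples share numbers that no source ties to an animal, so same-numbered samples were not treated as pairs. Their deviations correlated from -0.04 to 0.129, -0.152 to 0.055 and -0.327 to 0.146 in the 3 comparisons. These few correlations cannot show whether same-numbered samples come from the same animal. With the replicate block 24, 19 and 6 members were called. In iWAT against BAT this added Rxrg (-0.46, edgeR adjusted p = 0.0232) and lost Nr5a2 (0.67, edgeR adjusted p = 0.139). In eWAT against BAT it added Esr1 (0.86, edgeR adjusted p = 0.0046). Without TMM the median of all rows moved from 0.011 to 0.277 in iWAT against BAT and from 0.035 to 0.361 in eWAT against BAT, and the share of calls that were higher in white fat from 50.4% to 66.0% and from 51.9% to 66.3%. Leaving out a BAT sample took Vdr and Rorb out of the test of iWAT against BAT, and Rorb alone out of that of eWAT against BAT. Restricting the fit to rows shared by all files gave no member a value. Of the 13 members under 0.1 RPKM in every depot, 12 did not reach the read filter, so no difference could be tested for them.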

Other observations

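The ratio of receptor partners to RXRs differed between depots, while the partner sums were similar. The 14 genes for receptors that pair with an RXR (thyroid hormone, retinoic acid, PPAR, LXR, FXR, vitamin D, PXR and CAR) summed to 183 ± 11.1 RPKM in iWAT and 191 ± 22.7 in eWAT, against 179 ± 15.5 in BAT (mean ± SD, 6 samples each). The 3 RXR genes summed to 39.2 ± 2.26 RPKM in iWAT and 47.2 ± 7.54 in eWAT, against 23.9 ± 2.26 in BAT. The partner sum over the RXR sum was 7.50 ± 0.242 in BAT against 4.67 ± 0.187 in iWAT and 4.10 ± 0.394 in eWAT. The BAT ratios, 7.15 to 7.85, did not overlap those of iWAT, 4.47 to 5.01, or eWAT, 3.75 to 4.61. RNA ratios say nothing of protein, and no test was run.

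Enzymes that make or destroy ligands were listed too. Of 11 tested, 4 were higher in iWAT than in BAT (34.2% of all rows) and 2 were lower (33.6% of all rows). Without Aldh1a3 and Ch25h, which reached the filter only through the higher depot, the counts were 3 and 2 of 9. Aldh1a1, a retinaldehyde dehydrogenase, had a log2 fold change of 3.497 ± 0.28 (SE), and Dio2, which activates thyroid hormone, one of -4.77 ± 0.42. Aldh1a2, a relative of Aldh1a1, was at 3.72 RPKM on average in eWAT (1.15 to 10.0) against 0.128 in iWAT and 0.0457 in BAT. It reached the read filter only through eWAT, so no test is given. The 6 mesothelial markers were also highest in eWAT, summing to 16.5 to 32.5 RPKM there, 3.71 to 4.59 in iWAT and 11.1 to 13.4 in BAT. Unlike the mean of Aldh1a2, their sum was higher in BAT than in iWAT. Msln and Upk1b were at 0 in all iWAT samples and Upk1b was at 0 in all BAT samples. The part of mesothelial cells in the Aldh1a2 level was not tested. Of 10 chaperones of the steroid receptors, 4 were higher in iWAT than in BAT and 3 were lower. The share called was 70%, near the 67.8% of all rows. Fkbp5 was higher at 1.96 ± 0.48, while its relative Fkbp4 was lower at -0.78 ± 0.11.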
